A study of Mus musculus with 16 samples.

Results

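Complex I of the mitochondrial respiratory chain, NADH:ubiquinone oxidoreductase, was examined through its nuclear-encoded subunits and assembly factors in the epididymal white fat of obese mice. Members were all array probes whose annotated symbol began with Ndufa, Ndufb, Ndufc, Ndufs, Ndufv or Ndufaf. These were 53 probes of 40 genes, out of 25697 probes on the array. For each gene the probe with the highest mean signal over all arrays was used, and the other probes of 9 genes served as a check. Of the 40 genes, 39 were detected often enough to be tested among 9543 genes.

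Complex I takes electrons from NADH, passes them through flavin and iron-sulfur clusters to ubiquinone and pumps protons across the inner mitochondrial membrane. Its peripheral arm, in the matrix, holds the core subunits of the NADH-oxidising and the quinone-linked modules. Its membrane arm holds proton-pumping core subunits encoded by mitochondrial DNA, which the symbol rule does not cover, and many nuclear-encoded accessory subunits. Assembly factors help to build the complex and are not part of the finished enzyme. Rosiglitazone is an insulin-sensitising agonist of PPARγ, a nuclear receptor central to fat cell differentiation, and drugs of its class are known to raise mitochondrial content in adipocytes. Fgf21 encodes a hormone with metabolic effects on fat that is itself made in adipose tissue.

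The mice were wild-type (WT) or lacked Fgf21 (Fgf21-KO), all on a mixed c57b6/sv129 background and 4 to 5 months old. All 4 groups ate a high fat diet for 10 weeks and were obese. In each genotype 1 group also received rosiglitazone at 10 mg/kg for the last 2 weeks, and the other received vehicle. Each group consisted of 2 pools of RNA, each from 2 mice, and each pool was hybridised to 2 Illumina MouseRef-8 bead arrays, giving 16 arrays and 8 pools. The pool is the replicate throughout, so every group has n = 2. The labels do not say whether mice were littermates or how they were assigned to pools.

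On the array, 38 or 39 of the 40 genes were detected on each of the 16 arrays, and between 47.6% and 51% of all probes were. The median signal of an array ranged from 144.9 to 192.3, and the mean number of beads per probe was 36 to 38.9 on WT arrays and 39.4 to 40.7 on Fgf21-KO arrays. The Fgf21 probe was detected on 4 of 4 arrays in each WT group and on 1 of 4 in each Fgf21-KO group. Its signal was 337.2 and 356.9 in WT vehicle, 519.7 and 307.3 in WT rosiglitazone, 133.9 and 148 in Fgf21-KO on vehicle and 159.5 and 143.4 in Fgf21-KO given the drug. Every WT pool lay above every Fgf21-KO pool, which is the order the labels give. All 11 adipocyte markers on the array (among them Adipoq, Lep and Plin1) were detected, with a summed log2 level of 18.16 to 18.28 in the 8 pools.

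The first WT rosiglitazone pool stood apart from the other 7. The summed log2 level of 9 smooth muscle markers, 8 of them detected, was 16.44 in it and 13.87 to 14.62 elsewhere. The skeletal muscle markers summed to 12.84 there against 9.61 to 10.85, although 2 of the 9 were detected on 4 or more arrays, and 8 epithelial markers to 11.78 against 8.92 to 10.65. The summed level of macrophage markers was lowest in that pool, at 13.46 against 14.06 to 14.39. Among the detected ones Lyz2, Mrc1, Cd14 and Aif1 were each lowest there, while Adgre1 (10.08), Clec10a (8.83) and Itgam (5.03) were not. Counts and medians over the members that use the WT rosiglitazone group are therefore also given without it, as are values of single genes or lists that turned or shrank. Pools of Fgf21-KO mice differed in other markers. Liver markers, 6 of 8 detected, summed to 15.52 in the second vehicle pool and to 13.34 to 14.45 elsewhere. The liver markers Alb and Fgb were detected on 0 arrays, in that pool as in the others. Mesothelium markers, 7 of 7 detected, summed to 11.19 in the second rosiglitazone pool and to 12.19 to 12.74 elsewhere. In RNA from whole tissue, fewer cells of a type and less RNA per cell cannot be told apart.

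Upstream sequence is shown for members with the largest response to rosiglitazone in Fgf21-KO fat, because these members lay higher together. Windows came from RefSeq with build GRCm38.p6 and were found for 36 of the 40 genes, Ndufb9 not among them. The 250 bases before the annotated start are printed 5′ to 3′ on the gene's own strand, which is the minus strand in each case. They are chr16:37654369-37654618 for Ndufb4, chrX:20617620-20617869 for Ndufb11 and chr7:122101849-122102098 for Ndufab1. Another window, chr4:40279422-40279671 for Ndufb6, was chosen after its values were seen, as an upstream region that holds a searched motif, and capitals mark that motif.
Ndufb4: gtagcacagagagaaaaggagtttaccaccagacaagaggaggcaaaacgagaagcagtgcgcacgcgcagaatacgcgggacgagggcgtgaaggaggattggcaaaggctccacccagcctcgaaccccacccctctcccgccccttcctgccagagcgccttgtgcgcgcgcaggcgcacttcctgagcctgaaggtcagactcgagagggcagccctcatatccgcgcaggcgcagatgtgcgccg
Ndufb11: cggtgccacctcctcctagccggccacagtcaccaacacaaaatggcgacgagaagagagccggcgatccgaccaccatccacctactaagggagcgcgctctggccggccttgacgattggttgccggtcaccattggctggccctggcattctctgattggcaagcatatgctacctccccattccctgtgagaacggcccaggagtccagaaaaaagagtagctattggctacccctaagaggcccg
Ndufab1: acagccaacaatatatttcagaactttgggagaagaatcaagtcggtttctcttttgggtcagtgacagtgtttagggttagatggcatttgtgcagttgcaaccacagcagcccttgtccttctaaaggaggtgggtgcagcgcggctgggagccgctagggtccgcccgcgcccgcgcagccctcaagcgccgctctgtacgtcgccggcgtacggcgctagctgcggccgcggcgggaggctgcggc
Ndufb6: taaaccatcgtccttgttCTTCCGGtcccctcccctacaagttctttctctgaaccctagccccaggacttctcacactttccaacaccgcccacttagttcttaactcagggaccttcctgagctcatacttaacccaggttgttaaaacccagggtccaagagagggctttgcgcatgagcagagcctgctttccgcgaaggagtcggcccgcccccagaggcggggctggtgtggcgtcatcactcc

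The capitals in the Ndufb6 window mark the ETS (GABPA) core, CCGGAAG, read on the opposite strand, whose farthest base lies 232 bases before the start. Motifs were searched on both strands of windows of 300 bases that include the first bases after the start. The ETS core was in 5 of 38 windows of the members (13.2%; Ndufaf1, Ndufb6, Ndufb7, Ndufs3 and Ndufs8) and in 8.86% of all 32851 windows. The NRF1 core, GCATGCGC, was in 4 (10.5%; Ndufa6, Ndufa8, Ndufaf4 and Ndufaf5) and in 2.71% of all. The ERR site, TCAAGGTCA, and the PPAR DR1 site, 2 AGGTCA half-sites 1 base apart, were in 0 of 38 windows of the members and in 0.423% and 0.0396% of all windows. The ERR site contains an AGGTCA half-site, but an ERR match alone is not a DR1 match. These are matches of the exact letters given, so sites with variant letters were not counted, and no binding was measured.

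Most members gave bright probes: 26 of the 39 tested genes were in the top 5% of probes by mean signal, with Ndufa13 the brightest at 19169.9. A smaller number were dim, including Ndufb9 (397.8), Ndufb4 (229.1), Ndufaf3 (200.5), Ndufab1 (191.8) and Ndufb11 (186.8). Signals of different probes are not levels of different transcripts, since probes differ in how they hybridise. Of the 39 genes, 37 were detected on all 16 arrays, while Ndufab1 was detected on 14 and Ndufb11 on 13. The single probe of Ndufs1, the largest core subunit of the NADH-oxidising module, was detected on 0 of 16 arrays, with signals of 99.4 to 144.1, and was not tested. Ndufa4l2 was not analysed here.

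**Figure D1:**
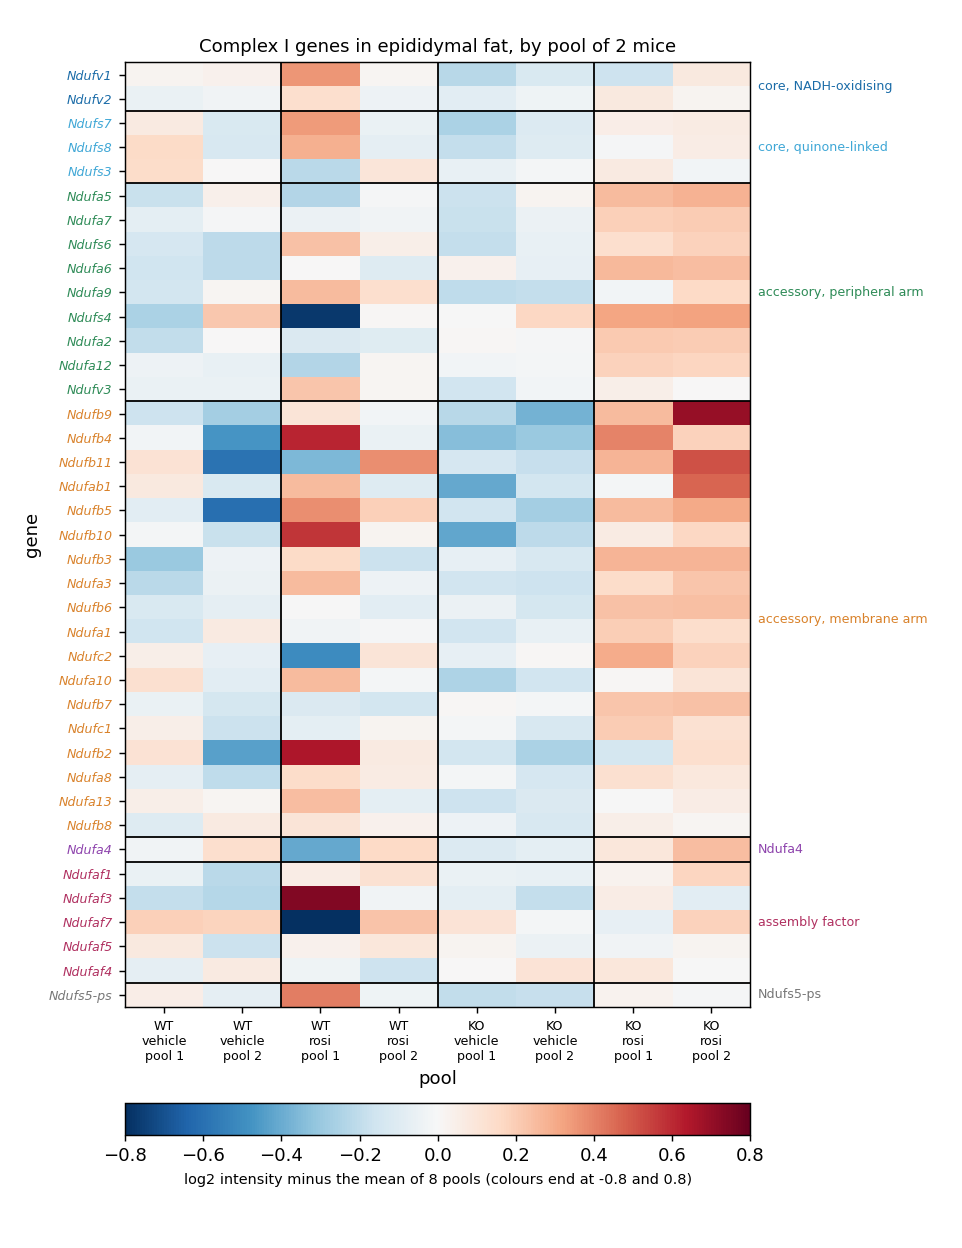
Each row is a complex I gene and each column a pool of 2 mice (WT or Fgf21-KO, vehicle or rosiglitazone, written rosi). Colour gives the log2 intensity minus that gene's mean over the 8 pools, and colours end at -0.8 and 0.8. Rows are grouped by role and ordered by the response in Fgf21-KO. The Fgf21-KO rosiglitazone columns are above the gene's mean for most subunits, and the first WT rosiglitazone pool differs from the second in both directions.

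The response to rosiglitazone in Fgf21-KO fat was higher expression of almost every complex I gene by a small amount. The log2 difference between rosiglitazone and vehicle was above 0 for 38 of 39 genes, against 49% of all genes tested, and its median was 0.24 against -0.0046 for all genes. The 1 exception was Ndufaf4, at -0.0093. Both rosiglitazone pools lay above both vehicle pools for 33 of the 39 genes, where 22.2% of all genes did so. For 0 of 39 they lay wholly below, where 22.8% of all genes did. Without the second vehicle pool 37 of 39 members were higher with a median of 0.22, and the same count and median held without the second rosiglitazone pool. In the same comparison all 6 detected liver markers were lower, with a median log2 difference of -1.48, and all 7 mesothelium markers, with a median of -0.70. By pool, the liver median relative to each gene's mean was -0.89 and 2.37 on vehicle and -0.49 and -0.85 with the drug. For mesothelium it was 0.18 and -0.12 on vehicle and -0.15 and -1.04 with the drug. The liver value was thus high in the second vehicle pool alone, and the mesothelium value far lower in the second rosiglitazone pool. The relation of those markers to the complex I values was not tested.

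No single gene passed an adjusted p of 0.05 in this comparison by limma with Benjamini-Hochberg adjustment over all probes, and neither did any other gene on the array (0%). The lowest adjusted p of a member was 0.81, for Ndufb9. At an unadjusted p under 0.05, 5 members were higher and 0 lower, where 2.65% of all genes were higher and 3.06% lower. These were Ndufb9, Ndufb6, Ndufb5, Ndufa7 and Ndufb4.

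Pools of a group differed less in Fgf21-KO than in WT by their median gap. The median absolute log2 difference between pools over the 39 members was 0.093 in Fgf21-KO on vehicle and 0.062 in Fgf21-KO given the drug, compared with 0.163 in WT vehicle and 0.248 in WT rosiglitazone. Arrays of the same pool differed by a median of 0.115.

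The members were compared with genes of similar brightness. All 17 tested members with a mean signal of 8000 or more were higher in Fgf21-KO with rosiglitazone, with a median log2 difference of 0.24, while 49.8% of the 410 genes that bright were higher, with a median of -0.0017. In the band from 2000 to 8000, 9 of 9 members were higher against 48.1% of genes, and in that from 500 to 2000 it was 6 of 7 against 48.7%. All 6 members below 500 were higher as well, against 49.5%, and they had the largest median, 0.53. These bands were chosen after the data were seen.

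Ndufb9, an accessory subunit of the membrane arm, had the largest response. Its log2 level was 7.90 and 7.80 in WT vehicle, 8.17 and 8.05 in WT rosiglitazone, 7.85 and 7.69 in Fgf21-KO on vehicle and 8.32 and 8.76 in Fgf21-KO given the drug. Rosiglitazone pools lay above vehicle pools in both genotypes without overlap, and both Fgf21-KO rosiglitazone pools lay above every other pool. The log2 difference in Fgf21-KO was 0.77 ± 0.18 (SE), a 1.71-fold difference with a 95% confidence interval of 0.35 to 1.20 (log2), unadjusted p = 0.00375 and adjusted p = 0.81 (limma). In WT it was 0.26 ± 0.18 (SE).

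Ndufb4 and Ndufb11, also accessory subunits of the membrane arm, followed. Ndufb4 read 6.66 and 6.21 in WT vehicle, 7.29 and 6.63 in WT rosiglitazone, 6.35 and 6.39 in Fgf21-KO on vehicle and 7.08 and 6.87 in Fgf21-KO given the drug. The Fgf21-KO groups did not overlap, with a log2 difference of 0.61 ± 0.25 (SE), whereas the WT groups did overlap. Ndufb11, encoded on the X chromosome, read 6.09 and 5.39 in WT vehicle, 5.62 and 6.35 in WT rosiglitazone, 5.84 and 5.79 in Fgf21-KO on vehicle and 6.25 and 6.49 in Fgf21-KO given the drug. Its probe was detected on 2 of 4 WT vehicle arrays, and the WT pools overlapped. The Fgf21-KO difference was 0.55 ± 0.31 (SE). In WT it was 0.24, and 0.61 without the first WT rosiglitazone pool.

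Ndufab1, the mitochondrial acyl carrier protein, which is both a subunit of complex I and a carrier in fatty acid synthesis, read 6.17 and 5.97 in WT vehicle, 6.34 and 5.98 in WT rosiglitazone, 5.68 and 5.94 in Fgf21-KO on vehicle and 6.07 and 6.55 in Fgf21-KO given the drug. It was detected on 2 of 4 Fgf21-KO vehicle arrays and on all arrays of the other groups. The Fgf21-KO groups did not overlap (log2 difference 0.50 ± 0.22, SE), and the WT groups did (0.095 ± 0.22, and -0.086 without the first WT rosiglitazone pool).

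Accessory subunits of the membrane arm, 18 of them tested, were all higher in Fgf21-KO with rosiglitazone, without overlap of pools, and their median log2 difference was 0.30. Besides those above, Ndufb5 (0.49), Ndufb10 (0.43), Ndufb3 (0.37), Ndufa3 (0.34) and Ndufb6 (0.33) had the next largest differences, and Ndufb8 the smallest at 0.12. In WT 16 of the 18 were higher, with a median of 0.13, and in 5 of them the pools did not overlap. In WT 13 of 18 were higher without the first rosiglitazone pool, with a median of 0.086.

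**Figure D2:**
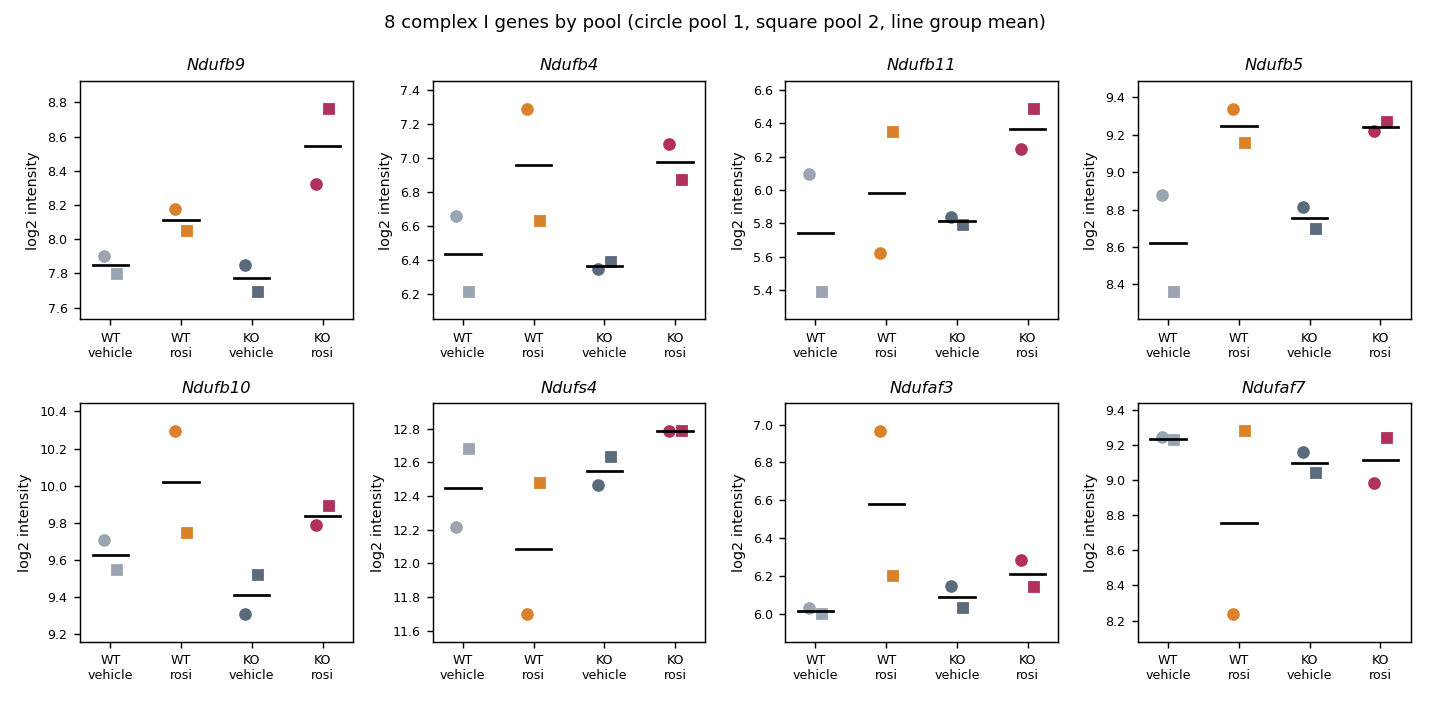
The log2 intensity of 8 complex I genes in each pool is plotted by group (WT or KO for Fgf21-KO, vehicle or rosi for rosiglitazone). Circles are the first pool, squares the second, and lines the group mean, with each panel on its own scale. Ndufb9, Ndufb4, Ndufb11, Ndufb5, Ndufb10 and Ndufs4 show Fgf21-KO rosiglitazone pools above the Fgf21-KO vehicle pools, and Ndufs4, Ndufaf3 and Ndufaf7 show how far the first WT rosiglitazone pool lay from the second.

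Ndufb5 had the largest response in WT and was high with the drug in both genotypes. It read 8.88 and 8.36 in WT vehicle, 9.34 and 9.16 in WT rosiglitazone, 8.81 and 8.69 in Fgf21-KO on vehicle and 9.22 and 9.27 in Fgf21-KO given the drug. All 4 rosiglitazone pools lay above all 4 vehicle pools. The log2 difference was 0.63 ± 0.19 (SE) in WT and, in Fgf21-KO, 0.49 ± 0.19 (SE), with adjusted p = 0.57 and 0.88 (limma). The WT difference was 0.54 without the first rosiglitazone pool, where that of Ndufb11 was larger at 0.61.

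Ndufb10 behaved alike: it read 9.71 and 9.54 in WT vehicle, 10.29 and 9.74 in WT rosiglitazone, 9.31 and 9.52 in Fgf21-KO on vehicle and 9.79 and 9.89 in Fgf21-KO given the drug. The drug pools lay above the vehicle pools of both genotypes, by 0.39 ± 0.21 (SE) in WT and, in Fgf21-KO, 0.43 ± 0.21 (SE). The WT difference was 0.12 without the first rosiglitazone pool.

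All 9 accessory subunits of the peripheral arm were higher in Fgf21-KO with rosiglitazone without overlap of pools, by 0.11 to 0.34 and by a median of 0.27. The largest were Ndufa5 (0.34), Ndufa7 (0.31) and Ndufs6 (0.29), and the smallest Ndufv3 (0.11). In WT 5 of the 9 were higher, with a median of 0.0072, and 8 of the 9 without the first WT rosiglitazone pool, with a median of 0.066.

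Ndufa6 read 12.47 and 12.42 in WT vehicle, 12.64 and 12.53 in WT rosiglitazone, 12.67 and 12.57 in Fgf21-KO on vehicle and 12.89 and 12.88 in Fgf21-KO given the drug. Its groups were ordered without overlap within each genotype and between vehicle groups, by 0.14 in WT, 0.27 in Fgf21-KO and 0.17 between genotypes under vehicle, the largest value on the higher side under vehicle among the members.

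Ndufs4, a peripheral accessory subunit whose loss in humans causes Leigh syndrome, read 12.21 and 12.68 in WT vehicle, 11.70 and 12.48 in WT rosiglitazone, 12.47 and 12.63 in Fgf21-KO on vehicle and 12.78 and 12.79 in Fgf21-KO given the drug. The low value of 11.70 was in the pool that stood apart. The log2 difference was -0.36 ± 0.28 (SE) in WT and, in Fgf21-KO, 0.24 ± 0.28 (SE). Without the first WT rosiglitazone pool the WT difference was 0.027. For the 3 other Ndufs4 probes the WT difference was 0.18, -0.0079 and 0.20, and that in Fgf21-KO was 0.37, 0.36 and 0.14. The other probes therefore did not share the WT difference of -0.36.

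Among the core subunits, Ndufv1, the NADH- and flavin-binding subunit, read 13.56 and 13.57 in WT vehicle, 13.89 and 13.55 in WT rosiglitazone, 13.31 and 13.41 in Fgf21-KO on vehicle and 13.37 and 13.61 in Fgf21-KO given the drug. Drug and vehicle pools overlapped in both genotypes. Ndufv2, its iron-sulfur partner, read 13.02 and 13.05, then 13.21 and 13.04, then 12.99 and 13.04, and then 13.16 and 13.10 in the same order of groups. Its Fgf21-KO pools did not overlap, with a log2 difference of 0.11 ± 0.13 (SE).

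In the quinone-linked module Ndufs7, which holds the last iron-sulfur cluster before ubiquinone, read 13.02 and 12.83 in WT vehicle, 13.30 and 12.90 in WT rosiglitazone, 12.70 and 12.84 in Fgf21-KO on vehicle and 13.004 and 13.02 in Fgf21-KO given the drug. Ndufs8, another iron-sulfur subunit, read 12.36 and 12.08, 12.50 and 12.14, 12.02 and 12.11, and 12.21 and 12.27 in those groups. Both were higher in Fgf21-KO with the drug without overlap, by 0.24 ± 0.17 and 0.17 ± 0.17 (SE). Ndufs3, which links the modules, read 12.67 and 12.53, 12.31 and 12.62, 12.46 and 12.51, and 12.60 and 12.50, and its pools overlapped in each genotype. Over the 5 tested core subunits the Fgf21-KO difference ran from 0.062 to 0.24.

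Ndufa4 was long counted as a complex I subunit and is now assigned to complex IV. It read 14.15 and 14.31 in WT vehicle, 13.77 and 14.33 in WT rosiglitazone, 14.07 and 14.10 in Fgf21-KO on vehicle and 14.27 and 14.42 in Fgf21-KO given the drug. The Fgf21-KO groups did not overlap (0.26 ± 0.20, SE), and the low WT value again lay in the pool that stood apart. The probe annotated to the pseudogene Ndufs5-ps was 0.20 ± 0.17 (SE) higher with the drug in each genotype, and at -0.026 in WT without the first rosiglitazone pool. Whether it also bound transcripts of the subunit gene Ndufs5 was not tested, so this value is uncertain.

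Of the 5 assembly factors tested, 4 had a difference above 0 in Fgf21-KO, their median was 0.013, and the pools of 1, Ndufaf1, did not overlap. All 32 tested subunits, without Ndufa4 and the pseudogene, were above 0, with a median of 0.26 and no overlap for 30. The difference between these classes was not tested. Ndufaf1, which acts early on the membrane arm, read 10.67 and 10.51 in WT vehicle, 10.79 and 10.84 in WT rosiglitazone, 10.67 and 10.66 in Fgf21-KO on vehicle and 10.75 and 10.89 in Fgf21-KO given the drug. Its drug pools lay above its vehicle pools in both genotypes.

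Ndufaf3, which works with Ndufaf4 on the quinone-linked module, read 6.03 and 5.998 in WT vehicle, 6.97 and 6.20 in WT rosiglitazone, 6.15 and 6.03 in Fgf21-KO on vehicle and 6.28 and 6.14 in Fgf21-KO given the drug. Its WT difference of 0.57 ± 0.24 (SE) was 0.18 without the first WT rosiglitazone pool. Ndufaf4 itself read 10.57 and 10.72, 10.61 and 10.48, 10.64 and 10.75, and 10.73 and 10.64, with overlap in each genotype.

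Ndufaf5, a hydroxylase that acts on Ndufs7, read 8.66 and 8.40 in WT vehicle, 8.61 and 8.67 in WT rosiglitazone, 8.60 and 8.53 in Fgf21-KO on vehicle and 8.55 and 8.60 in Fgf21-KO given the drug. Ndufaf7, a mitochondrial methyltransferase, read 9.24 and 9.23, 8.24 and 9.28, 9.16 and 9.04, and 8.99 and 9.24. The value of 8.24 lay in the pool that stood apart, and without that pool the WT difference of -0.48 ± 0.32 (SE) became 0.044. Genes of other names that help to assemble complex I, 11 tested, had a median difference of 0.20 in Fgf21-KO and 0.059 in WT. Of these 7 were higher in Fgf21-KO (Tmem126b had the largest difference, 0.33) and 6 in WT.

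In WT fat the response pointed the same way with a smaller median and more spread. The difference was above 0 for 29 of 39 members, against 55.5% of all genes, with a median of 0.099 against 0.032. The pools of 11 members did not overlap, all higher, where 18.7% of all genes were wholly higher and 15.6% wholly lower. Adjusted p under limma was above 0.05 for every member and gene (0%). An unadjusted p under 0.05 was found for 1 member, Ndufb5, where 4.74% of all genes were higher and 2.94% lower. Without the first WT rosiglitazone pool, 28 of 39 were higher with a median of 0.060, against 46.6% and -0.015 for all genes. Without the second it was 26 of 39 with a median of 0.195, against 59% and 0.095 for all genes.

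**Figure D3:**
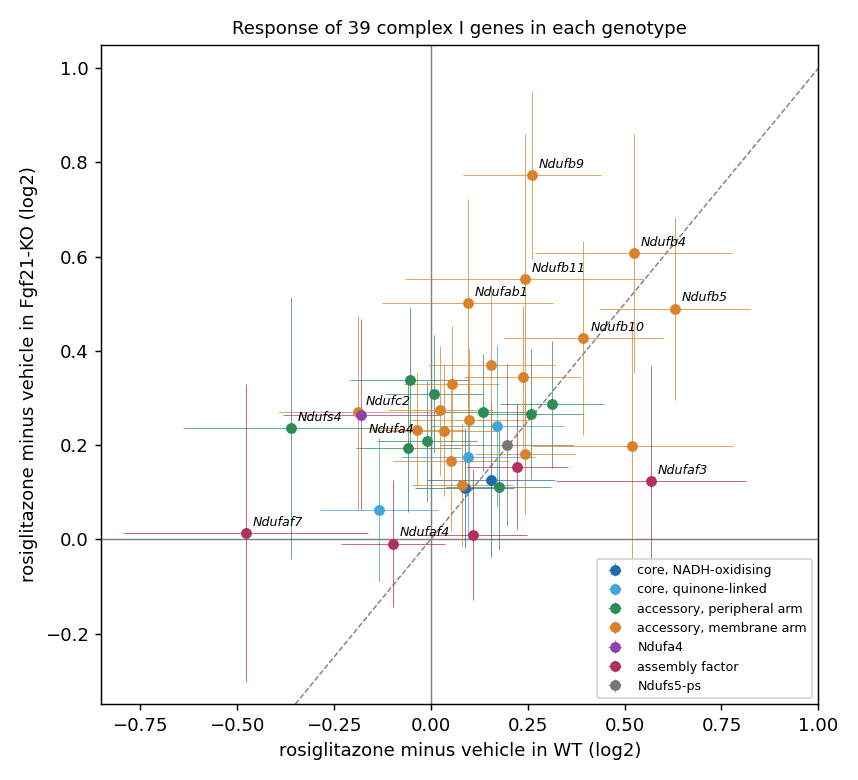
For each of the 39 complex I genes the log2 difference between rosiglitazone and vehicle in Fgf21-KO (vertical) is plotted against that in WT (horizontal), with bars of 1 SE and colours by role. The dashed line marks equal responses. Points lie above 0 on the vertical axis for all genes but Ndufaf4, and 10 lie below 0 on the horizontal axis.

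The 2 responses share no samples. Both were above 0 in 29 of 39 members (74.4%), against 28.8% of all genes. In 9 members the Fgf21-KO response alone was above 0, in 0 the WT response alone, and in 1, Ndufaf4, neither. Across the 39 members, which are not independent, Pearson's r between the responses was 0.40 and Spearman's rho 0.32, as a description.

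Averaged over genotypes, the rosiglitazone difference was above 0 for 35 of 39 members, against 52% of all genes, with a median of 0.16 against 0.0078. All 4 drug pools lay above all 4 vehicle pools for 8 members, where 2.49% of all genes were wholly higher and 2.21% wholly lower. These were Ndufb5, Ndufb9, Ndufb10, Ndufa3, Ndufa8, Ndufs6, Ndufv3 and Ndufaf1. The other probe of Ndufa8 was at -0.082 in WT, 0.20 in Fgf21-KO and 0.060 averaged over genotypes. An unadjusted p under 0.05 was found for 7 members, all higher, where 4.8% of all genes were higher and 3.78% lower. An adjusted p of 0.05 was reached by none of the members or genes (0%, limma, lowest adjusted p of a member 0.50). Without the first WT rosiglitazone pool 38 of 39 were above 0, with a median of 0.16.

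**Figure D4:**
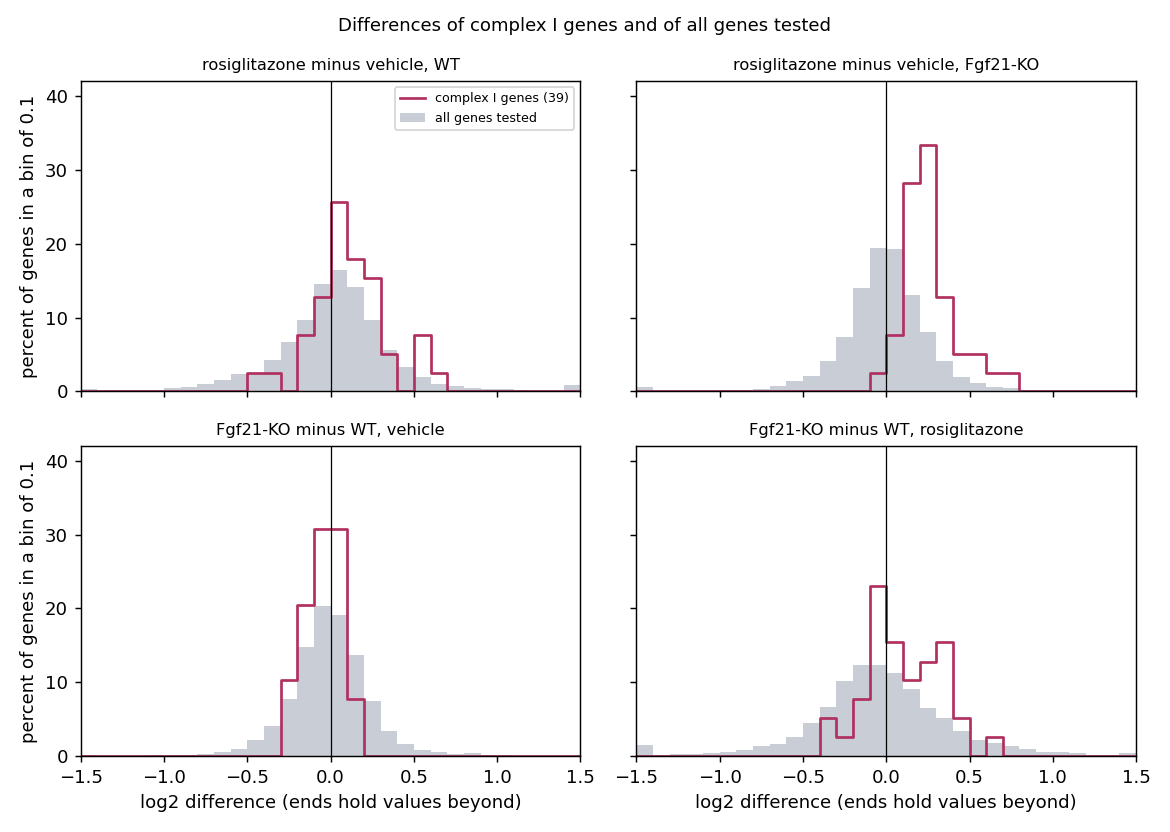
In each of 4 comparisons grey bars show the percent of all 9543 genes tested in bins of 0.1 of the log2 difference, and the red line shows the same for the 39 complex I genes. End bins also hold values beyond them. The complex I genes lie to the right of all genes with rosiglitazone in Fgf21-KO, where their median was 0.24 against -0.0046.

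Under vehicle, complex I genes differed little between genotypes. The Fgf21-KO minus WT difference was above 0 for 15 of 39 members, against 48.3% of all genes, with a median of -0.027 and a range of -0.26 to 0.17. Pools did not overlap for 3 members that were higher (Ndufa6, Ndufa12 and Ndufb7) and for 10 that were lower. Among all genes 19.7% were wholly higher and 23.1% wholly lower. Neither an adjusted p of 0.05 (0% of genes, limma) nor an unadjusted p under 0.05 (2.12% of genes higher, 2.56% lower) was reached by any member.

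The largest differences under vehicle were -0.26 ± 0.22 (SE) for Ndufab1, -0.22 ± 0.15 (SE) for Ndufa10 and -0.21 ± 0.21 (SE) for Ndufb10 on the lower side, and 0.17 for Ndufa6, 0.13 for Ndufb5 and 0.10 for Ndufs4 on the higher side. Ndufa10, an accessory subunit of the membrane arm, read 13.19 and 12.98 in WT vehicle, 13.32 and 13.05 in WT rosiglitazone, 12.82 and 12.91 in Fgf21-KO on vehicle and 13.07 and 13.16 in Fgf21-KO given the drug. Both Fgf21-KO vehicle pools lay below every other pool.

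The authors' deposited table of VAMPIRE tests, a variance-modelling method for arrays, lists 2661 rows and 4 members. How its p-values treated the 2 arrays of a pool was not examined. In the authors' deposited table Ndufb5 had a ratio of 1.535 for rosiglitazone in WT (p = 6.74e-07) and Ndufb9 a ratio of 1.449 in Fgf21-KO (p = 9.89e-08), both marked as past a Bonferroni threshold. The authors' deposited table also marks Fgf21-KO over WT ratios under vehicle of 0.732 for Ndufa10 (p = 4.6e-07) and 0.728 for Ndufb10 (p = 5.83e-07).

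All 12 ratios of the authors' deposited table for these genes equalled ratios of the mean non-normalized signals over 4 arrays per group to within 0.0549%, and departed from ratios of the normalized values by up to 16.8%. On the normalized values the genotype ratio was 0.858 for Ndufa10 and 0.875 for Ndufb10. The median signal of an array was 174.4 to 192.3 in WT and 144.9 to 178.8 in Fgf21-KO.

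Under rosiglitazone, Fgf21-KO minus WT was above 0 for 24 of 39 members, against 44.2% of all genes, with a median of 0.079 against -0.046. Pools did not overlap for 14 members that were higher and 1 that was lower, Ndufaf5, where 19.7% of all genes were wholly higher and 27% wholly lower. An adjusted p of 0.05 was reached by 0 members and 0% of genes (limma, lowest adjusted p of a member 0.26). An unadjusted p under 0.05 was reached by 6 members, all higher, where 6.51% of all genes were higher and 9.28% lower. Without the first WT rosiglitazone pool 31 of 39 members were higher, with a median of 0.11, against 51.4% and 0.0086 for all genes. Without the second, 19 of 39 were higher, with a median of -0.032, against 39.9% and -0.11 for all genes. The members' median thus stood 0.099 and 0.081 above that of all genes.

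The largest of these genotype differences were 0.70 ± 0.28 (SE) for Ndufs4, 0.44 ± 0.21 (SE) for Ndufc2 and 0.43 ± 0.18 (SE) for Ndufb9, and on the lower side -0.37 ± 0.24 (SE) for Ndufaf3, -0.36 ± 0.26 (SE) for Ndufb2 and -0.23 ± 0.17 (SE) for Ndufv1. Without the first WT rosiglitazone pool Ndufs4 was at 0.31, Ndufc2 at 0.14, Ndufb9 at 0.50, Ndufaf3 at 0.014, Ndufb2 at -0.075 and Ndufv1 at -0.059. With all pools kept, the other Ndufs4 probes were at 0.17, 0.38 and -0.023. Ndufc2, a membrane arm subunit, read 12.91 and 12.80 in WT vehicle, 12.37 and 12.97 in WT rosiglitazone, 12.80 and 12.88 in Fgf21-KO on vehicle and 13.17 and 13.06 in Fgf21-KO given the drug. Ndufb2, of the same arm, read 7.89 and 7.34, 8.42 and 7.84, 7.62 and 7.52, and 7.63 and 7.90.

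These genotype medians depended on how the arrays were scaled. With each array scaled to a common median in place of quantile normalization, 15 of 39 members were higher in Fgf21-KO under rosiglitazone, with a median of -0.13, and 6 of 39 under vehicle, with a median of -0.10. The median of all genes moved to -0.22 and -0.081 in the same comparisons. Relative to all genes the members' median stood 0.13 higher under rosiglitazone by quantile normalization and 0.093 higher by median scaling. For rosiglitazone in Fgf21-KO the median under median scaling was 0.16 with 35 of 39 higher, and it stood 0.25 above that of all genes, against 0.24 by quantile normalization.

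The difference between the responses of the genotypes, their interaction, was above 0 for 30 of 39 members, against 44.3% of all genes, with a median of 0.12 against -0.044. By limma 0 members and 0% of genes passed an adjusted p of 0.05. An unadjusted p under 0.05 was reached by 0 members, where 1.9% of all genes were higher and 2.9% lower. The largest values were 0.60 ± 0.39 (SE) for Ndufs4, 0.51 ± 0.25 (SE) for Ndufb9 and 0.49 ± 0.45 (SE) for Ndufaf7. The lowest were -0.44 for Ndufaf3, -0.32 for Ndufb2 and -0.14 for Ndufb5. The other Ndufs4 probes were at 0.19, 0.37 and -0.069. Without the first WT rosiglitazone pool the interaction was 0.21 for Ndufs4, -0.031 for Ndufaf7, -0.060 for Ndufaf3 and -0.033 for Ndufb2. When the first WT rosiglitazone pool was left out 31 of 39 were above 0 with a median of 0.16, against 50.9% and 0.0051 for all genes. Without the second it was 21 of 39 with a median of 0.019, against 40.5% and -0.11 for all genes. Under median scaling 19 of 39 were above 0, with a median of -0.0052 and an all-gene median of -0.15. No member's response was shown by the test to differ between the genotypes, and the sign of the median depended on the scaling.

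Averaged over treatments, the genotype difference had a median of 0.033 over the members. It was 0.046 without the first WT rosiglitazone pool and 0.018 without the second, and with each pool left out in turn it ran from 0.00073, without the second WT vehicle pool, to 0.051. By limma 0 members passed an adjusted p of 0.05, against 0.0105% of all genes, and 2 members, Ndufa6 and Ndufb7, were higher at an unadjusted p under 0.05, against 5.66% of all genes. Ndufb7, a membrane arm subunit, read 9.38 and 9.29 in WT vehicle, 9.32 and 9.28 in WT rosiglitazone, 9.44 and 9.42 in Fgf21-KO on vehicle and 9.66 and 9.67 in Fgf21-KO given the drug. All 4 Fgf21-KO pools lay above all 4 WT pools.

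Other nuclear-encoded genes of the respiratory chain were read beside complex I. In Fgf21-KO with rosiglitazone the median log2 difference was 0.20 for complex III (10 of 11 tested genes higher), 0.17 for complex IV (19 of 20), 0.20 for complex V (14 of 15) and 0.083 for complex II (4 of 6). In WT the medians were 0.13, 0.077, 0.13 and 0.093, and without the first rosiglitazone pool 0.047, -0.0068, 0.040 and -0.026. Mitochondrial ribosomal proteins had medians of 0.13 in Fgf21-KO (62 of 69 higher) and 0.10 in WT (52 of 69). A list of 10 general mitochondrial genes, such as Cs, the citrate synthase, and Vdac1, an outer membrane channel, had 0.24 in Fgf21-KO and 0.075 in WT, or 0.044 in WT without that pool. For the ribosomal proteins the median relative to each gene's mean was 0.021 and -0.066 in the WT vehicle pools. It was 0.195 in the first WT rosiglitazone pool and -0.023 in the second. No difference between complex I and these lists was tested, and 26 of the 39 members exceeded the Fgf21-KO median of complexes II to V.

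**Figure D5:**
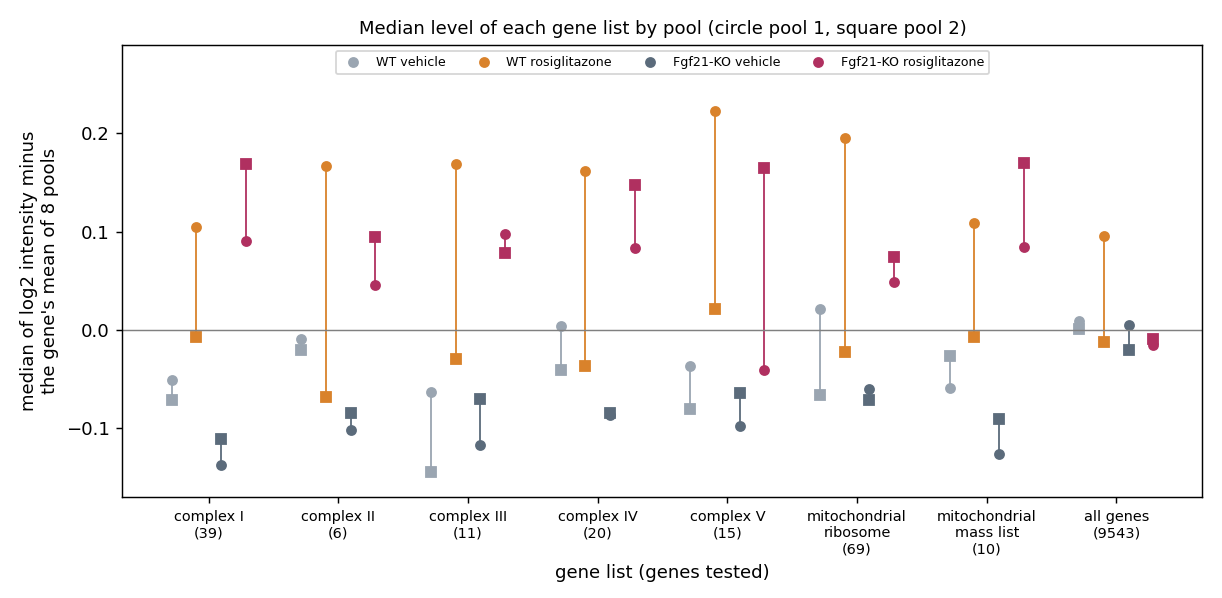
For each gene list the median over its genes of the log2 intensity minus the gene's mean over 8 pools is plotted for every pool, with circles for the first pool, squares for the second and colours by group. Complex I had -0.14 and -0.11 in the Fgf21-KO vehicle pools and 0.091 and 0.17 in the Fgf21-KO rosiglitazone pools. The first WT rosiglitazone pool was high for most lists and for all genes.

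By pool, the complex I median relative to each gene's mean was -0.051 and -0.071 in WT vehicle, 0.10 and -0.0073 in WT rosiglitazone, -0.14 and -0.11 in Fgf21-KO on vehicle and 0.091 and 0.17 in Fgf21-KO given the drug. The first WT rosiglitazone pool was at 0.096 for all genes too, close to its complex I value of 0.10. The 32 tested subunits alone were at 0.14 in that pool. These medians were not matched for brightness.

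Regulators of mitochondrial genes, 13 tested, showed no common direction with the drug. Their median was -0.018 in Fgf21-KO, with 6 of 13 higher, and 0.056 in WT, with 8 of 13 higher. Ppargc1a, a coactivator that drives mitochondrial biogenesis, was 0.49 ± 0.22 (SE) higher in Fgf21-KO and 0.46 ± 0.22 (SE) higher in WT. Its probe was dim, with log2 levels of 5.37 to 6.41, and was detected on 9 of 16 arrays, so these differences are uncertain. Ppargc1b, the relative of Ppargc1a, was detected on all 16 arrays and was 0.35 ± 0.22 (SE) higher in each genotype. Esrra, a nuclear receptor that acts with both coactivators, was at 0.16 and 0.30 in Fgf21-KO and WT. Pparg itself was at -0.20 and -0.21. With the first rosiglitazone pool left out the WT values were 0.29 for Ppargc1a, 0.050 for Ppargc1b, -0.034 for Esrra and -0.014 for Pparg, and 4 of the 13 regulators were higher, with a median of -0.034. None of these passed an adjusted p of 0.05 (limma).

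Markers of brown or beige adipocytes lay higher beside these genes in Fgf21-KO. Of 8 on the array 4 were detected (Ucp1, Cidea, Cox8b and Cpt1b) and Dio2, Elovl3, Prdm16 and Tmem26 were detected on 0 arrays. The 4 had a median difference of 0.60 in Fgf21-KO and 0.36 in WT, and Ucp1, the uncoupling protein, had 0.75 ± 0.38 (SE) in Fgf21-KO and 0.44 ± 0.38 (SE) in WT. In WT the direction turned without the first rosiglitazone pool, where 1 of the 4 was higher, the median was -0.13 and Ucp1 was at -0.091. Adipocyte markers had a median of 0.10 in Fgf21-KO (7 of 11 higher) and -0.0096 in WT (5 of 11 higher), or 0.075 in WT without that pool. Their part in the complex I values was not tested.

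Second probes of the members gave the same direction in Fgf21-KO. Of 10 other probes tested, for 7 genes, 10 had a difference above 0 with rosiglitazone, from 0.10 to 0.57, and 10 shared the direction of the gene's brightest probe. In WT 5 of 10 shared that direction and 7 were above 0. The 3 remaining probes, 2 of Ndufaf7 and 1 of Ndufb11, were not tested because they were detected on too few arrays.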

How the data were processed

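RNA from epididymal white fat was labelled with biotin and hybridised to single-colour Illumina MouseRef-8 arrays, per the labels. The authors deposited non-normalized bead intensity per probe with the number of beads and a detection p-value, a table of normalized intensity, and a table of VAMPIRE ratios and p-values, per the file headers. How the authors normalized their intensity table is not given in the sources used here. Another 64 columns of the deposited tables were not used.

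From the non-normalized intensity, background was corrected with nec in limma 3.58.1 (R 4.3.3; normal-exponential model, offset 16), arrays were quantile-normalized, log2 was taken and the 2 arrays of a pool were averaged. Probes with a detection p-value of 0.05 or less on at least 4 of 16 arrays were kept, 13759 in all, of which 789 had no symbol. The 8 pools entered 1 fit with a mean for each of 4 groups (lmFit and eBayes; 4 residual and 2.74 prior degrees of freedom). Each contrast was tested two-sided, with Benjamini-Hochberg adjustment over all probes kept. Counts over all genes use each gene's brightest probe. The fit was tested on simulated data.

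The labels give pools of different mice, and with 2 per group the p-values rest on few residual degrees of freedom. Intensities have no count behind them, so the number of arrays limits precision. Genes given pool by pool are the core subunits, Ndufa4, Ndufab1, the assembly factors and the 3 largest differences each way per comparison, plus Ndufb7, which was chosen after its values were seen. Members, lists and tests were chosen with earlier results of these data known. Alternatives covered background offset, scaling, the authors' table, the filter on dim probes, technical repeats, the variance model, other probes, a replicate block and leaving out each pool. Figures were drawn with matplotlib 3.10.9 in Python 3.11.15.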

Additional observations from a re-analysis of the deposited data

How the results depend on the processing

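No member passed an adjusted p of 0.05 under any alternative that kept all 8 pools, and the medians for rosiglitazone in Fgf21-KO and WT and averaged over genotypes stayed above 0 under each alternative tried. With each array scaled to a common median, the members' median was 0.16 for rosiglitazone in Fgf21-KO, -0.10 for genotype under vehicle, -0.13 for genotype under rosiglitazone, -0.0052 for the interaction and -0.11 for genotype averaged over treatments, and the median of all genes moved with it. With detection required on all 16 arrays, the median for genotype under rosiglitazone was 0.020. With pools left out in turn, medians ran from 0.060 to 0.195 for rosiglitazone in WT, from 0.22 to 0.25 in Fgf21-KO, from -0.032 to 0.11 for genotype under rosiglitazone, from 0.019 to 0.16 for the interaction from 0.15 to 0.21 for rosiglitazone averaged over genotypes and from 0.00073 to 0.051 for genotype averaged over treatments. Members past an adjusted p of 0.05 then numbered from 0 to 4 for rosiglitazone in WT, 0 to 5 for genotype under rosiglitazone, 0 to 3 for the interaction, 0 to 8 for rosiglitazone averaged and 0 to 4 for genotype averaged. Each upper end came without the second WT rosiglitazone pool, where 1698 to 3393 probes of the array passed and the group rests on the pool that stood apart, whose spread is taken from the other groups.

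With the first array of each pool alone, Ndufaf3 was at -0.087 for rosiglitazone in WT, 0.048 for genotype under rosiglitazone and 0.37 for the interaction. By its brightest other probe, Ndufs4 was at 0.18 for rosiglitazone in WT and -0.017 for genotype under vehicle. With pools left out in turn, rosiglitazone in WT ran from -0.9999 to 0.044 for Ndufaf7, from -0.75 to 0.027 for Ndufs4 and from -0.49 to 0.11 for Ndufc2. Genotype under vehicle ran from -0.13 to 0.33 for Ndufs4 and from -0.13 to 0.39 for Ndufb5, and genotype under rosiglitazone from -0.75 to 0.014 for Ndufaf3. The interaction ran from -0.031 to 1.01 for Ndufaf7 and from -0.40 to 0.12 for Ndufb5, and rosiglitazone in Fgf21-KO from -0.063 to 0.044 for Ndufaf4. The cause was not tested. With both arrays of a pool kept and the pool as a random block, 13 to 654 probes and 0 members passed. The replicate block left every median as it was, 0.24 for rosiglitazone in Fgf21-KO, and 0 members and 0 probes passed. Same-numbered pools had deviations correlated from -0.10 to 0.27, and the labels do not say that the numbers pair samples.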
